A study of Mus musculus with 20 samples.

Results

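The 8 genes described here control the SREBP transcription factors or take up and move sterols: Srebf1, Srebf2, Scap, Insig1, Insig2, Stard4, Npc1 and Npc1l1. They were chosen by name, with earlier results of these data known. Every probe carrying one of these symbols on the array was taken, which gave 15 probes for 8 of 25096 named genes. Transcript levels were measured in bulk intestinal tissue of 20 C57BL6/j mice, aged 8 to 12 weeks, with 1 one-colour Agilent array per mouse. Cre control mice (6 arrays) carried VillinCreER/0, a Cre recombinase activated by tamoxifen and driven by the promoter of Villin, a gene of the gut epithelium, with wild-type Braf. BRAFV600E mice (6 arrays) carried VillinCreER/0 and 1 copy of BrafV600E-LSL, a Cre-dependent allele of the mutant kinase. Mice of both groups received 3 daily injections of 2 mg tamoxifen and were culled 3 days after the last. For MEKi and Vehicle (4 arrays each), the study's legends give BrafV600E mice, with 2 injections of 1 mg tamoxifen. MEKi mice then received 3 daily injections of PD184352, an inhibitor of MEK, the kinase directly downstream of BRAF, and Vehicle mice the solvent alone. Tissue of both groups was taken 3 days after tamoxifen. Levels are log2 processed intensities relative to the 75th percentile of the array, so a level below 0 is a signal dimmer than that percentile.

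The SREBP proteins are made as precursors in the membrane of the endoplasmic reticulum. SCAP, encoded by Scap, binds sterols and escorts the precursors to the Golgi, where proteases release the active factor, while the INSIG proteins hold SCAP back when sterols are plentiful. SREBP2, from Srebf2, mainly drives genes of cholesterol synthesis and uptake, and SREBP1, from Srebf1, mainly genes of fatty acid synthesis. Srebf2 and Insig1 are themselves SREBP targets. In the intestine, NPC1L1 takes up dietary cholesterol at the brush border of enterocytes. NPC1 moves cholesterol out of lysosomes, and STARD4 carries it between membranes inside the cell.

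The promoters of Insig1 and Srebf2 are shown because these genes had the largest called differences in the comparison of BRAFV600E with Cre control. RefSeq (GRCm38.p6) gave 11 promoter windows for 6 of the 8 genes, each from 250 bases before to 50 after a transcription start. Printed are the 250 bases before the start, 5′ to 3′ on the strand of the gene, which is the plus strand for both, with matches to the NF-Y box CCAAT on either strand in capitals. The Insig1 stretch lies at chr5:28071162-28071411 and the Srebf2 stretch at chr15:82147019-82147268.
Insig1: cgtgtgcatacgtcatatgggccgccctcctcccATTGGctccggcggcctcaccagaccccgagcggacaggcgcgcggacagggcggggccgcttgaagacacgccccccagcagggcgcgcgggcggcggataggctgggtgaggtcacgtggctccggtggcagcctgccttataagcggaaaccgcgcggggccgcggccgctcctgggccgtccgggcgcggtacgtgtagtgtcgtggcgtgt
Srebf2: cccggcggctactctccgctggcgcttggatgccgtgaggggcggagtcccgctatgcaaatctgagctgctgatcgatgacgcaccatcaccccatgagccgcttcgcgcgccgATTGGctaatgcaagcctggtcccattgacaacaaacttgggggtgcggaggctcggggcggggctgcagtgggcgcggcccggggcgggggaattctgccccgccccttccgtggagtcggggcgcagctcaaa
The letters TCACNCCAC, a form of the sterol regulatory element, occurred on either strand in 0 of the 11 windows and in 1.24% of 32851 windows searched. The search took exact letters only. The printed Srebf2 stretch holds tcaccccat, which differs from that form in its last base, and such near matches were not counted. CCAAT occurred in 6 of the 11 windows, against 37.4% of all windows, and the GC box GGGCGG in 8 of the 11, against 35.7%. Insig1 held 1 CCAAT match at bases −216 to −212 from the start and 3 GC boxes. Srebf2 held 1 CCAAT match at bases −135 to −131 and 5 GC boxes. The 2 Scap windows overlap each other. No motif match overlapped another in these windows, and a match describes letters only.

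The arrays differed in ways that bear on the comparisons. The Cre control arrays (6) shared slide 1 with BRAFV600E replicates 1 and 2, while BRAFV600E replicates 3 to 6 were alone on slide 2. Rows were unequal too. On slide 1 both BRAFV600E arrays were in row 2, with 4 Cre control arrays in row 1 and 2 in row 2. The 4 arrays of slide 2 were in row 1. On slide 3, MEKi filled one row and Vehicle the other, so the row cannot be told apart from the treatment. On the 4 arrays of slide 2 the spike-in slope in the scanner files was 0, and 53 to 139 of 350 spike-in spots were well above background, against 258 to 312 on the other 16 arrays. The share of spots well above background was 60.8% to 76.8% per array, and no spot was saturated. Vehicle replicate 2 stood apart: its mean level over 6 exocrine pancreas genes was 7.42, against −3.74 to −3.54 on the other Vehicle arrays. Its mean over 10 proximal small intestine genes was 4.18, against 2.63 to 2.72 on those arrays. Over 9 distal small intestine genes its mean was 0.03, against 1.63 to 2.35. The 7 intestinal epithelium markers averaged 5.40 to 6.13 on the 20 arrays, and all 7 passed the filter on dim probes. Y-linked signal was high on 3 of 6 Cre control, 4 of 6 BRAFV600E, 4 of 4 MEKi and 2 of 4 Vehicle arrays. In bulk tissue, fewer cells of a type and less RNA per cell cannot be told apart. Nothing states that mice of a group came from separate litters or days, so the p-values cover only the spread between these mice.

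**Figure D1:**
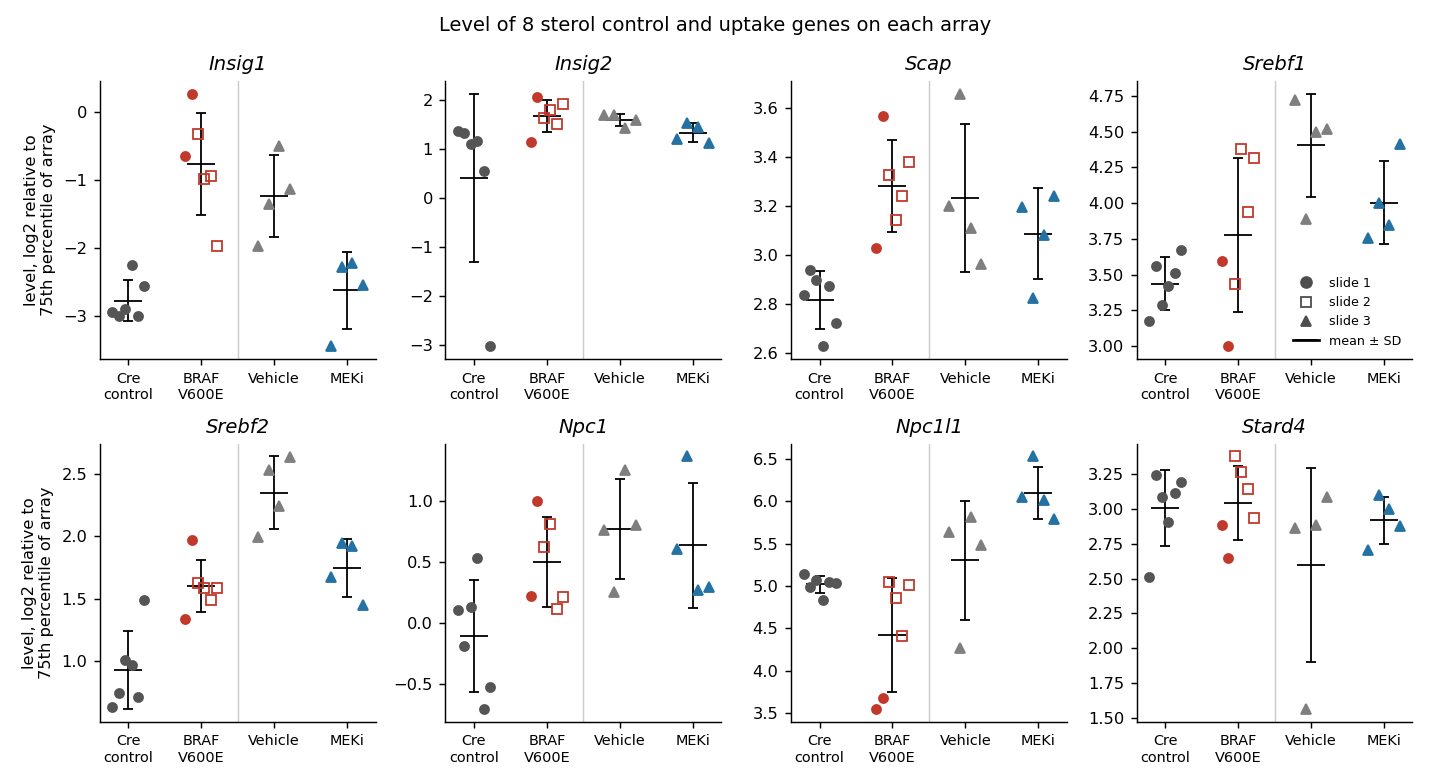
Level of each of the 8 genes (log2 relative to the 75th percentile of the array) on each of the 20 arrays by group, with slide 1 as filled circles, slide 2 as open squares and slide 3 as triangles, and mean ± SD in black. Insig1 did not overlap between the groups of either comparison, a single Cre control array was low for Insig2, and both BRAFV600E arrays of slide 1 were low for Npc1l1.

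Insig1, whose protein retains SCAP in the endoplasmic reticulum and which is switched on by SREBP, was higher in BRAFV600E than in Cre control. Its level ran from −1.97 to 0.27 over the 6 BRAFV600E arrays, with a median of −0.79. Over the 6 Cre control arrays it ran from −3.00 to −2.24, with a median of −2.92. The lowest BRAFV600E array thus lay above the highest Cre control array. The mean rose by 2.0 on the log2 scale, a 4.01-fold difference (SE 0.31, limma adjusted p = 0.0019). The difference was 2.58 within slide 1 (adjusted p = 0.0044) and passed the test in all 25 alternatives, at values from 1.38 to 2.81.

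In the second experiment the Insig1 groups also did not overlap, in the opposite order. The 4 Vehicle arrays read −1.97, −1.36, −0.50 and −1.14. The 4 MEKi arrays read −3.45, −2.28, −2.22 and −2.54. All 4 MEKi arrays were below all 4 Vehicle arrays. The difference of −1.38 (SE 0.37, 95% interval −2.23 to −0.54) did not pass the test over 19262 genes (limma adjusted p = 0.11). The single Insig1 probe lies at 28404246 to 28404305 of chromosome 5 in build mm9.

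Insig2, which encodes the other SCAP-retaining protein and is not generally counted among SREBP targets, gave a weaker reading that depended on the probe. The probe that stands for the gene ran from 1.14 to 2.05 in BRAFV600E, with a median of 1.71. In Cre control it ran from −3.02 to 1.37, with a median of 1.13. The range of the controls came from Cre control replicate 6 alone, since the other 5 lay between 0.54 and 1.37. The difference was 1.26 (SE 0.64, adjusted p = 0.21) with that array and 0.57 (adjusted p = 0.085) without it, and neither passed the test.

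A second Insig2 probe shares 46 of its 60 bases with the first and read −0.25 on Cre control replicate 6, inside the −0.68 to 0.09 of the other controls. Its difference was 0.49 (SE 0.19) with an adjusted p of 0.12 over the 38493 probes tested. The last Insig2 probe differs from both, since its 60 bases cover 236 bases of the minus strand of chromosome 1 (123203517 to 123203752, build mm9) and therefore cross an intron. It is printed, 5′ to 3′ in lower case, because it is the 1 Insig2 probe of 3 that passed the test.
Insig2 probe: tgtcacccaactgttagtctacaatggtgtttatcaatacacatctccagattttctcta
On this probe the 6 BRAFV600E arrays ran from −0.57 to 0.64 and the 6 Cre control arrays from −1.68 to −0.69, without overlap. Its difference was 0.93 (SE 0.23, adjusted p = 0.026 over every probe). The 3 probes thus shared a direction and differed in size. In MEKi against Vehicle they differed by −0.27, −0.18 and −0.46, in the same order, and none passed the test (adjusted p of 0.31 to 0.68).

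**Figure D2:**
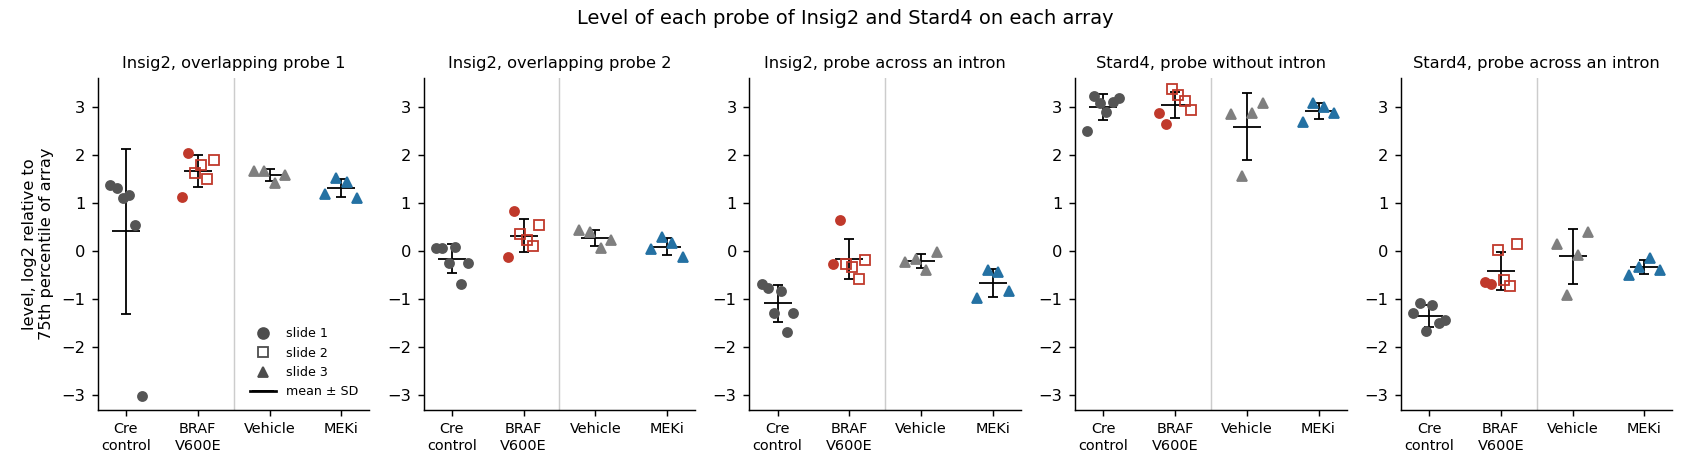
Level of each of the 3 Insig2 probes and both Stard4 probes (log2 relative to the 75th percentile of the array) on each array by group, with symbols and bars as in the plot of the 8 genes. The reading of −3.02 on Cre control replicate 6 is on overlapping probe 1 of Insig2 only, and the Stard4 probe across an intron separates BRAFV600E from Cre control while the other Stard4 probe does not.

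Scap, which encodes the sterol-sensing escort itself, was slightly higher in BRAFV600E. Its level was 3.03 to 3.56 on the BRAFV600E arrays (median 3.28) and 2.63 to 2.94 on the Cre control arrays (median 2.85). The groups did not overlap. The difference of 0.47 (SE 0.12) passed the test with an adjusted p of 0.026, and without BRAFV600E replicate 2, 3 or 6 it was 0.41, 0.46 or 0.45, with an adjusted p of 0.0523, 0.0504 or 0.0509. Within slide 1 it was 0.48, with an adjusted p of 0.20. Vehicle arrays read 3.20, 3.66, 3.11 and 2.96, and MEKi arrays 3.19, 2.82, 3.08 and 3.24. These overlapped, with a difference of −0.15 (95% interval −0.56 to 0.26, adjusted p = 0.76). The Scap probe lies at 110287280 to 110287339 of chromosome 9 (build mm9).

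Srebf2, the gene of the cholesterol-directed SREBP, was higher in BRAFV600E on both of its probes. On the representative probe BRAFV600E ran from 1.34 to 1.97 (median 1.58) and Cre control from 0.64 to 1.49 (median 0.86). A single control, replicate 6, reached into the BRAFV600E range. The difference was 0.67 (SE 0.16, adjusted p = 0.020), and 0.67 (SE 0.19) on the second probe (adjusted p = 0.040 over every probe). Within slide 1 it was 0.73 and did not pass (adjusted p = 0.17).

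In the second experiment Srebf2 read 1.99, 2.53, 2.24 and 2.63 on the Vehicle arrays. It read 1.67, 1.94, 1.92 and 1.45 on the MEKi arrays. The groups did not overlap on either probe. The differences of −0.60 (SE 0.19, adjusted p = 0.16) and, on the second probe, −0.74 (SE 0.15, adjusted p = 0.080) did not pass the test. With the Y-linked signal, which was unequal between these groups, as a term in the fit, the representative probe differed by −0.37 (adjusted p = 0.51). The second probe lies at 82034765 to 82034824 and the representative probe at 82035495 to 82035554 of chromosome 15 (build mm9).

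Srebf1, the gene of the SREBP linked to fatty acid synthesis, had overlapping groups in both comparisons. It ran from 3.00 to 4.38 in BRAFV600E (median 3.77) and from 3.17 to 3.67 in Cre control (median 3.47). The difference of 0.34 (SE 0.22, 95% interval −0.14 to 0.83, adjusted p = 0.33) became −0.14 within slide 1 (adjusted p = 0.73). Vehicle arrays read 4.72, 3.89, 4.50 and 4.52, and MEKi arrays 3.75, 4.0, 3.85 and 4.41, a difference of −0.40 (95% interval −0.91 to 0.10, adjusted p = 0.43). Its single probe lies at 60013214 to 60013273 of chromosome 11 (build mm9), so the promoter forms of Srebf1 cannot be told apart.

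Npc1l1, the cholesterol uptake protein of the brush border, split the BRAFV600E arrays by slide. BRAFV600E replicates 1 and 2 on slide 1 read 3.55 and 3.68. Replicates 3 to 6 on slide 2 read 5.04, 4.85, 4.41 and 5.01. The 6 Cre control arrays, all on slide 1, lay between 4.84 and 5.14. Over all 12 arrays the difference of −0.59 (SE 0.26) had an adjusted p of 0.15. Within slide 1, with 2 BRAFV600E arrays, it was −1.40 and passed the test (adjusted p = 0.0038). With the slide as a block it was the same −1.40 (adjusted p = 0.0012), because only slide 1 holds both groups. The 2 fits are thus not separate results. The low reading was therefore carried by the 2 BRAFV600E arrays of slide 1, and slide 2 has no control array to set against the others. The single Npc1l1 probe lies at 6111238 to 6111297 of chromosome 11 (build mm9).

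Enterocyte markers were also low on BRAFV600E replicates 1 and 2. Among the other 4 BRAFV600E arrays, replicate 5 had the lowest Npc1l1 (4.41) and the highest enterocyte mean (6.32). The mean level of 12 enterocyte genes, all tested, was 5.76 and 4.90 on BRAFV600E replicates 1 and 2, against 6.07 to 6.32 on the other 4 and 6.0 to 6.37 on the Cre control arrays. In this comparison 1 of the 12 genes passed the test as higher and 1 as lower. Distal small intestine genes, 9 tested, averaged −0.05 and −0.59 on the same 2 arrays, 0.37 to 1.08 on the other BRAFV600E arrays and 1.13 to 2.06 in Cre control. Proximal small intestine genes, 9 tested with 1 higher and 1 lower, averaged 3.37 to 3.71 in BRAFV600E and 3.77 to 3.98 in Cre control. Of these, 5 nevertheless read higher in BRAFV600E and 4 lower, with a median difference of 0.30. Paneth cell genes, 6 tested, averaged 2.99 to 4.88 in BRAFV600E and 5.54 to 6.68 in Cre control, and 4 of them passed as lower. T lymphoid genes, 7 tested with 3 lower, averaged 0.46 and 0.93 on BRAFV600E replicates 1 and 2, 1.59 to 2.03 on the other 4 and 1.39 to 2.60 in Cre control. Of 7 goblet cell genes 3 passed as lower and 1 as higher, with means of 5.95 to 6.91 in BRAFV600E and 6.69 to 7.20 in Cre control. Of 6 macrophage genes 2 passed as lower (means 1.56 to 2.41 against 2.08 to 2.82), and of 7 smooth muscle genes 2 passed as higher (means 2.69 to 3.6 against 2.41 to 3.11). The part of these markers in the Npc1l1 difference was not tested.

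In the second experiment Npc1l1 read 5.64, 4.27, 5.81 and 5.48 on the Vehicle arrays and 6.05, 6.53, 6.01 and 5.79 on the MEKi arrays. The groups overlapped by 1 array. The difference of 0.79 (95% interval 0.01 to 1.58) had an adjusted p of 0.30. Without Vehicle replicate 2, the array with pancreas genes, it was 0.45 (adjusted p = 0.31). Over all 8 arrays with the Y-linked signal as a term, it was 0.37 (adjusted p = 0.78). Genes reading higher in MEKi numbered 8 of 12 enterocyte, 6 of 7 goblet, 6 of 6 Paneth and 6 of 7 T lymphoid genes. In these lists 0 genes passed the test. Lower readings were commoner for proximal small intestine (8 of 10, with 1 passing as higher) and fibroblast genes (6 of 6). Vehicle replicate 2 had a proximal mean of 4.18, against 2.63 to 2.72 on the other Vehicle arrays and 2.69 to 3.13 in MEKi. Its Paneth mean was 3.93, against 5.34 to 5.72 on the other Vehicle arrays and 5.55 to 6.43 in MEKi. These counts were not repeated without that array.

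**Figure D3:**
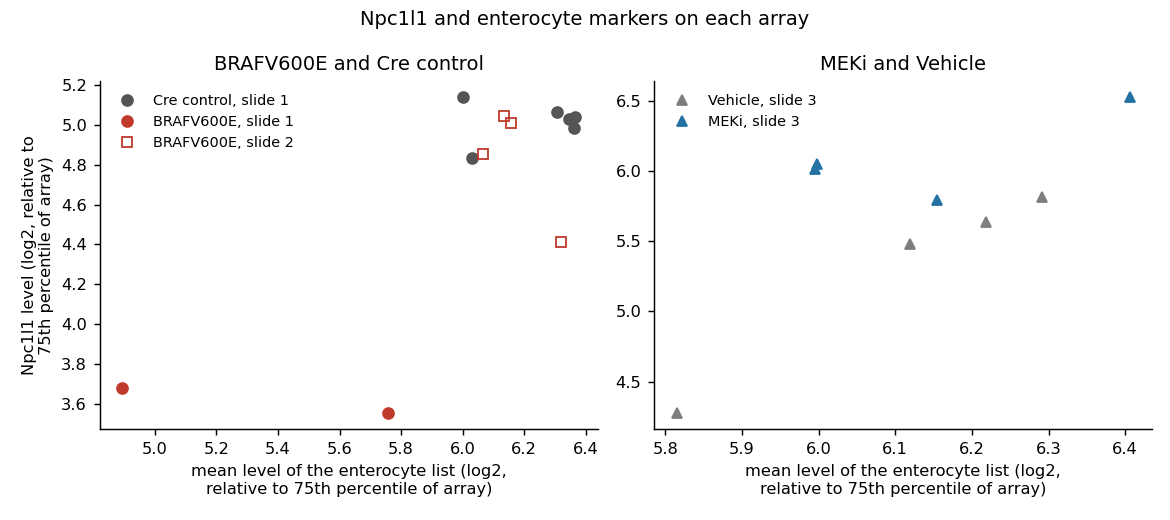
Npc1l1 level against the mean level of 12 enterocyte genes (both log2 relative to the 75th percentile of the array), 1 point per array, for BRAFV600E and Cre control (left) and for MEKi and Vehicle (right). The 2 BRAFV600E arrays of slide 1 and Vehicle replicate 2 were lowest on both axes among the arrays of their experiment.

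Npc1, which exports cholesterol from lysosomes, read 0.12 to 1.00 in BRAFV600E (median 0.42) and −0.71 to 0.53 in Cre control (median −0.04), with overlap. The difference of 0.61 (SE 0.23) did not pass the test (adjusted p = 0.099), except without Cre control replicate 4 (0.73, adjusted p = 0.043) and without scaling. Of its 3 other probes, 2 that target other transcript models differed by −0.09 and 0.03, and the last was well above background on none of the 12 arrays. That last probe was well above background on 2 of the 4 Vehicle arrays, replicates 1 and 2, and on no MEKi array. In MEKi against Vehicle the representative probe differed by −0.13 (95% interval −0.81 to 0.55, adjusted p = 0.88).

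Stard4, a small sterol carrier and a known SREBP2 target, gave readings that disagreed between its probes. On the brighter probe, which stands for the gene, BRAFV600E ran from 2.65 to 3.38 (median 3.04) and Cre control from 2.51 to 3.24 (median 3.10). Their difference was 0.03 (95% interval −0.32 to 0.39, adjusted p = 0.92). The other probe, whose 60 bases cover 1990 bases of the genome and so cross an intron, ran from −0.72 to 0.15 in BRAFV600E and from −1.66 to −1.07 in Cre control. On it the groups did not overlap, and the difference of 0.93 (SE 0.19) passed the test over every probe (adjusted p = 0.012). In the mean of both probes the difference was 0.48 (adjusted p = 0.048). Which transcripts each probe reads was not tested.

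In the second experiment the brighter Stard4 probe read 2.86, 1.57, 2.89 and 3.08 on the Vehicle arrays and 2.70, 3.09, 3.00 and 2.87 on the MEKi arrays. Vehicle replicate 2 was again the low array. The difference was 0.32 (adjusted p = 0.70) with it and −0.03 without it. The intron-crossing probe differed by −0.23 (SE 0.27, adjusted p = 0.80).

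Over the 8 genes, 3 passed the test as higher in BRAFV600E, namely Insig1, Srebf2 and Scap, and 0 as lower. Over all 19065 genes tested, 6.18% passed as higher and 6.28% as lower. The groups did not overlap for 2 of the 8 genes, Insig1 and Scap, against 7.36% of all genes. The median difference of the 8 was 0.54, beside −0.02 for all genes, and 7 of the 8 were above 0. At an unadjusted p under 0.05 there were 5 of 8, against 30.1% of all genes. Since the 8 genes were chosen with earlier results of these data known, these shares are a description and not a test.

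Slide 2 holds no Cre control array, so the block fit and the fit within slide 1 both compare the groups on slide 1 alone. In both fits, the 2 genes called were Insig1, higher, and Npc1l1, lower. Of all genes, 2.43% were called higher and 5.63% lower with the block, and 1.01% higher and 2.84% lower within slide 1. The Srebf2 and Scap differences kept their size there, at 0.73 and 0.48, with adjusted p of 0.077 and 0.10 in the block fit. Without scaling between arrays the median of all genes moved to 0.79, and 7 of the 8 genes were called higher, as were 48.1% of all genes. Relative to that median, Npc1l1 differed by −0.58 and Stard4 by 0.05.

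In MEKi against Vehicle, limma called 0 of the 8 genes, against 1.09% of 19262 genes called higher and 0.883% called lower. Before adjustment, 3 of the 8 had a limma p under 0.05, against 16.4% of all genes. These were Insig1 and Srebf2, lower, and Npc1l1, higher. The same count of 0 came from all 19 alternatives. The groups did not overlap for Insig1 and Srebf2, while 12.2% of all genes had groups without overlap. The median difference of the 8 was −0.21, beside 0.04 for all genes. For 7 of the 8 genes the sign was opposite to that in BRAFV600E against Cre control, Stard4 being the exception on its brighter probe, as it was for 70.2% of the 18602 genes tested in both. Of the 1177 of these genes called higher in BRAFV600E, 92.1% had an opposite sign.

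**Figure D4:**
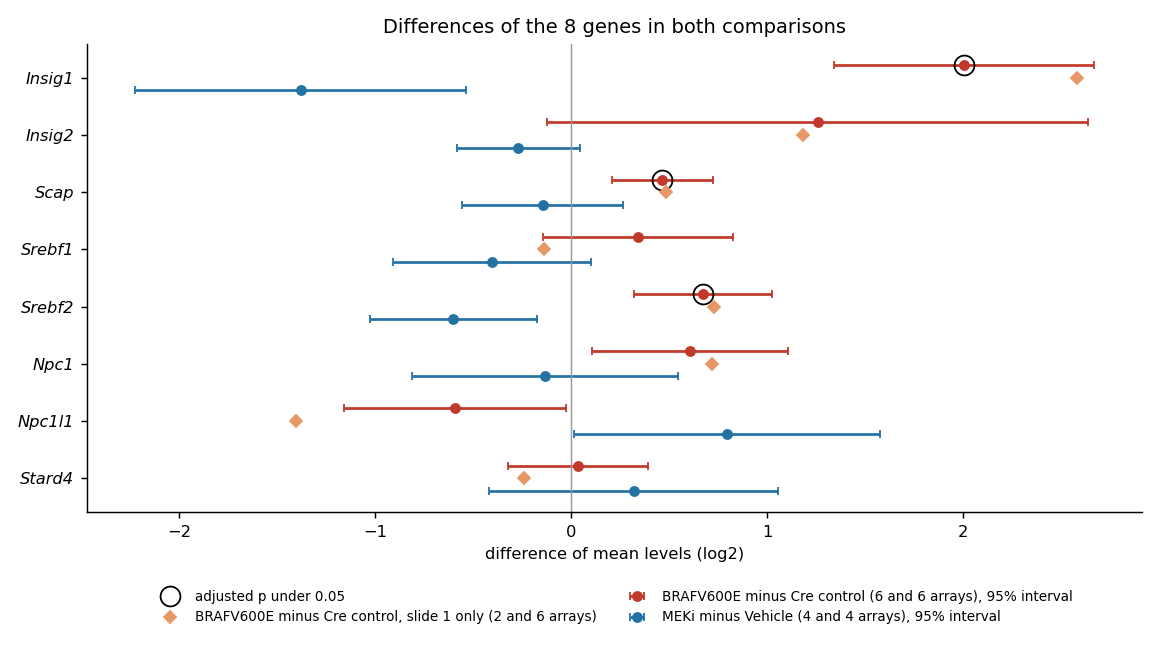
Difference of mean levels (log2) of the 8 genes, with 95% intervals, for BRAFV600E minus Cre control in red (6 and 6 arrays) and MEKi minus Vehicle in blue (4 and 4 arrays), with black rings at adjusted p under 0.05 and diamonds for slide 1 alone (2 and 6 arrays). Insig1, Scap and Srebf2 carry rings in the first comparison, no gene does in the second, and the diamond of Npc1l1 lies at −1.40.

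Pairs of related genes were compared within each array, where a constant subtracted from an array cancels, by a two-sided exact permutation test over arrays, with Benjamini-Hochberg values over the 6 tests. Npc1l1 changed relative to Npc1 by −1.20 in BRAFV600E (exact permutation p = 0.0065, adjusted p = 0.039). The test ignored the slide, and a ratio within an array does not remove a difference between slides. Within slide 1 alone the change was −2.12. The opposite change of 0.93 in MEKi reached the smallest p that 4 against 4 arrays allow (exact permutation p = 0.029, adjusted p = 0.057). Insig1 changed relative to Insig2 by −1.11 in MEKi, with the same exact permutation p of 0.029 and adjusted p of 0.057. In BRAFV600E its change of 0.75 relative to Insig2 did not pass (exact permutation p = 0.40), but without Cre control replicate 6 it was 1.48 (exact permutation p = 0.013). Srebf2 relative to Srebf1 changed by 0.33 in BRAFV600E and −0.20 in MEKi, with exact permutation p of 0.29 and 0.60. The Npc1l1 to Npc1 change fell to −0.77 when the probes of each gene were averaged (exact permutation p = 0.082).

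The rest of the pathway was followed in lists of named genes. Of 20 genes that process or turn over SREBP, 1 rose in BRAFV600E, namely Mbtps2, a Golgi protease that releases SREBP (0.62, adjusted p = 0.030), and the list's median was 0.09. Of 19 tested cholesterol biosynthesis enzymes, 14 rose and 0 fell, with a median of 0.94. Fdps (1.57), Nsdhl (1.49) and Lss (1.42), which act at farnesyl pyrophosphate, sterol demethylation and lanosterol, differed most. Of 16 fatty acid synthesis genes 6 rose, with a median of 0.31, led by the desaturase Scd2 (2.74), the malic enzyme Me1 (1.81) and the desaturase Fads2 (1.02). Of 11 genes of LXR, efflux and esterification 1 fell, the cholesterol exporter Abca1 (−2.49), with a median of −0.23. MAPK output genes, which MAPK signalling switches on, rose in 13 of 18, led by the ETS factor Etv4 (2.50), the feedback inhibitor Spry4 (2.19) and Phlda1 (1.76). Within slide 1 the genes that passed numbered 0 of 20, 4 of 19, 2 of 16, 2 of 11 and 4 of 18 in the order given, fewer than over all arrays in each list but LXR, efflux and esterification.

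In MEKi against Vehicle fewer genes of these lists passed, and each one that did fell. Among the 20 genes of SREBP processing it was Sar1b, a GTPase of vesicles leaving the endoplasmic reticulum (−0.59), with a list median of −0.04. In cholesterol biosynthesis, 6 of 19 fell, with a median of −0.91, led by Lss (−1.85), Mvk, mevalonate kinase (−1.39), and Fdft1, squalene synthase (−1.24). Scd2 (−1.52) was the 1 of 16 fatty acid genes, with a median of −0.21, and 0 of 11 genes passed in LXR, efflux and esterification, with a median of 0.24. Etv4 (−2.95), Etv5 (−2.57) and Spry4 (−2.34) led the 7 of 18 MAPK output genes, with a median of −1.02. Without 1 array, 1 to 5 cholesterol enzymes passed, with 1 left without MEKi replicate 1 or 3 or Vehicle replicate 4, and 4 to 9 MAPK output genes. After adjustment for Y-linked signal, 0 cholesterol enzymes and 3 MAPK output genes passed.

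The genes whose levels followed each of the 8 most closely were found by Pearson r over 20 arrays, after the mean of each experiment was subtracted, among 18387 genes measured on every array. The arrays share slides, tissue composition and group, so r is a description. Insig1 was closest to Zfp7 (r = 0.93), Mid1ip1 (0.92) and Aqp5 (0.92), and with each group's mean subtracted r was 0.72, 0.67 and 0.67. Srebf2 was closest to Ctnna1 (0.90), Tmem254c (0.89) and Pklr (0.89), and Scap to Serinc2 (0.93), Stx18 (0.92) and Fam83e (0.91). With group means subtracted these 6 kept r of 0.75 to 0.86. Npc1l1 was closest to Apol7a (0.94), Slc43a2 (0.94) and Enpp7 (0.93), which kept r of 0.92, 0.92 and 0.89 with group means subtracted. Subtracting group means leaves the slide split of Npc1l1 within BRAFV600E in place (3.55 to 3.68 on slide 1, 4.41 to 5.04 on slide 2). Srebf1 was closest to Smlr1 (0.85), A830052D11Rik (0.84) and Ddt (0.83), Npc1 to Cemip (0.88), Stk17b (0.82) and Rap2b (0.81), and Stard4 to Ace (0.81), Gdpd2 (0.81) and Tmem41a (0.80).

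For Insig2 the likeness rested on 1 array. Over 20 arrays it was closest to Pacsin2 (r = 0.98), Ttc39a (0.98) and Ccdc47 (0.97). Without Cre control replicate 6 these fell to 0.82, 0.75 and 0.71, and other genes came first, namely Cept1 (0.90), Chp1 (0.89) and Tmem128 (0.87). On that array 166 of 19056 genes read more than 2 log2 units below the next lowest control, against 2 to 68 genes on each of the other 5 controls. Among the 8 genes themselves, Srebf2 and Insig1 had the highest r with experiment means subtracted (0.82), which was 0.42 with group means subtracted. With group means subtracted, Stard4 and Npc1l1 had the highest (0.70, against 0.64 with experiment means subtracted). Vehicle replicate 2 was the lowest Vehicle array for both, at 1.57 and 4.27. In BRAFV600E both read lower on slide 1 (Stard4 2.65 to 2.89, Npc1l1 3.55 to 3.68) than on slide 2 (2.94 to 3.38 and 4.41 to 5.04). This r was not computed without those arrays.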

How the data were processed

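RNA from intestinal tissue of 20 mice was hybridised to Agilent SurePrint G3 Mouse arrays. Per the file headers, the authors extracted each array with Agilent Feature Extraction 10.5.1.1, which subtracted background and wrote a linear intensity per spot, and the deposited marks (0 or 1) of another kind tell which spots stood clear of background, were saturated or were outliers. Between arrays, the deposited intensity is not normalized, and the authors' series matrix held the same values (100% of spots within 0.5%), so it gave only the alternative without scaling. The labels' treatment text describes a statin and matches none of the 4 groups, so groups came from the other labels. The genotype of MEKi and Vehicle mice is given in the study's legends only. Replicate numbers only name arrays. Every column of per-array values was matched to an array.

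Control and outlier spots were left out. Intensities were put on the log2 scale, the 75th percentile of each array was subtracted and copies of a probe were averaged. Of 56605 probes, 34598 were named through RefSeq (GRCm38.p6) by accession, 9507 by symbol and 299 by synonym, and 12201 without a symbol were not tested. The probe with the highest mean over 20 arrays stood for a gene. Genes whose probe was well above background on 50% or more of a comparison's arrays were tested with limma 3.58.1 (lmFit and eBayes, R 4.3.3, two-sided), each comparison on its own arrays and without covariates, and the call needed a Benjamini-Hochberg adjusted p below 0.05 over all genes tested. Intervals are 95%. The fit was tested on simulated data. Named beside the 8 genes were up to 3 called genes with the largest difference from each list and comparison, and the 3 genes of highest r for each of the 8. A list of other sterol uptake and transport genes is not reported here. The 8 genes, the lists and the alternatives were chosen with earlier results of these data known. Alternatives changed the scaling (none, quantile), the background correction (normexp, offset 50), the filter on dim probes, the choice of probes, the arrays in the fit, array weights, a mean-variance trend, the Y-linked signal as a covariate, the slide as a block or slide 1 alone, and left out each array in turn. The files give probe coordinates on build mm9. Whether a probe lies in an exon or UTR was not analysed here. Promoter windows on the chromosome of Npc1 and Stard4 were not used. The number of arrays limits the precision.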

Additional observations from a re-analysis of the deposited data

Results flagged for a closer look

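The 15 probes of the 8 genes were checked in each of the 4 groups for an array far from the rest of its group (Dixon's ratio at 95%), which made 60 checks. Chance alone marks about 1 in 20 groups, and 5 were marked. Of the probes that stand for a gene, Insig2 was low on Cre control replicate 6 (−3.02, against 0.54 to 1.37 on the other 5). Stard4 was low on Vehicle replicate 2 (1.57, against 2.86 to 3.08), the array with exocrine pancreas genes at a mean of 7.42. The intron-crossing Insig2 probe was high on BRAFV600E replicate 2 (0.64, against −0.57 to −0.18). An Npc1 probe to another transcript model was low on Vehicle replicate 4 (−1.97, against −1.77 to −1.73). The Npc1 probe that was not well above background in this comparison was high on Cre control replicate 6 (−5.73, against −7.24 to −7.03).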

How the results depend on the processing

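In BRAFV600E against Cre control, 2376 genes passed the test, and 9339 did without scaling (98.1% of them higher, against 49.6%), 4648 with normexp (34.2% higher), 3591 of 38493 when every probe was tested, 1536 with the slide as a block (30.1% higher) and 735 within slide 1 (26.3% higher). Leaving out 1 array gave 1444 to 2862, and the count moved by over 1.5 times without Cre control replicate 2 (1528) or 3 (1444). Of the 8 genes, 3 passed, 7 without scaling, and 2 to 4 without 1 array. Insig1 passed in all 25 alternatives, Srebf2 in 23 and Scap in 20. Srebf1 turned to −0.14 with the slide as a block and within slide 1. Stard4, near 0, turned to −0.029 with quantile normalization, −0.24 with the slide as a block or within slide 1, and ran from −0.067 to 0.11 without 1 array. Npc1l1 turned to 0.22 without scaling.

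In MEKi against Vehicle, 380 genes passed, and 73 did without scaling, 234 without the filter, 1131 with array weights, 53 with the Y-linked covariate and 76 to 374 without 1 array, moving by over 1.5 times for every array but MEKi replicate 2 and Vehicle replicate 2. Stard4 ran from −0.025 to 0.48 and Npc1 from −0.37 to 0.029 without 1 array, and Npc1 was 0.10 in the mean of its probes.

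Insig1 relative to Insig2 in BRAFV600E was 1.11 in the mean of all probes (exact permutation p = 0.043) and 0.52 to 1.48 without 1 array. Npc1l1 relative to Npc1 was −0.77 in the mean of all probes. In MEKi, Insig1 relative to Insig2 was −1.09 with quantile normalization (exact permutation p = 0.086) and −0.78 with normexp (exact permutation p = 0.057), and −1.38 to −0.81 without 1 array. Srebf2 relative to Srebf1 ran from −0.42 to 0.037 without 1 array. The causes of these changes were not tested. No paired analysis was possible because the labels give no replicate numbers. BRAFV600E has only 2 arrays beside controls on 1 slide, Vehicle and MEKi share no slide row, and all MEKi but only 2 Vehicle arrays had high Y-linked signal, so sex, row and treatment cannot be fully told apart.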
